A study of Rattus norvegicus with 24 samples.

Results

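Transcripts of 8 enzymes of fatty acid oxidation and of the nuclear receptor Ppara, which controls many of their genes, were compared in left kidneys of salt-sensitive Dahl rats and of congenic substrains fed extra salt. The members were all probe sets (groups of short probes that together read 1 transcript) of either chip whose platform annotation gave exactly 1 of the symbols Cpt1a, Cpt2, Acadm, Acadl, Acadvl, Hadha, Hadhb, Ehhadh or Ppara. They were 12 of 31142 probe sets and stood for 9 of 13810 genes. Of these probe sets, 10 read the 7 mitochondrial genes, 1 read Ehhadh and 1 read Ppara.

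The strains were the inbred SS/jr rat (S) and its congenic substrains ET3x1 and ET3x2. Such a substrain carries alleles of a salt-resistant strain on the S background, and from general knowledge of these rats the replaced segment is on chromosome 3. All rats were males. Their diet held 0.4% NaCl up to an age of 39 to 41 days and 2% NaCl over the following 28 days, and they were 67 to 69 days old when sampled. Rats kept on the lower salt diet were not analysed here, so every comparison is between strains under salt. Each pool combined RNA of 2 rats in S but of 3 rats in either substrain. There were 4 pools per strain, with pools A to D for S, E to H for ET3x1 and I to L for ET3x2. The number of rats in a pool and the S genotype cannot be told apart. Each of the 12 pools was hybridised to the Affymetrix arrays RAE230A and RAE230B, 24 arrays in all, and values are log2 signals. Of the 9 member genes, 0 lie on chromosome 3 in the rat assembly GRCr8.

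Fatty acids are a main fuel of the proximal tubule, the kidney segment that does most of the reabsorption of salt and solutes. Long-chain fatty acids enter mitochondria as carnitine esters and are shortened there by repeated cycles of dehydrogenation, hydration, a second dehydrogenation and thiolysis. Peroxisomes run a parallel set of reactions on very long chains, branched chains and dicarboxylic acids, with enzymes of their own. The receptor PPAR alpha, made from Ppara, binds DNA as a dimer with a retinoid X receptor and induces genes of both routes when fatty acids are plentiful.

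The upstream DNA of some members is shown here. The results set Acadm and Acadvl, whose pools lay below S in a substrain, beside Ehhadh, whose pools lay above it. Pools did not overlap in 6.4% of all probe sets tested in ET3x1 against S and in 5.95% in ET3x2 against S. No difference of these genes passed the main test after adjustment. Hadha and Hadhb are shown because they encode both subunits of a single enzyme complex and share their upstream stretch. Of the 9 members, 8 had a promoter in the RefSeq table for GRCr8, all but Acadl. Each sequence is printed in lower case, with the hexamer AGGTCA, the recognition core of many nuclear receptors, in capitals where it occurs on either strand. Acadm lies on the minus strand with its 250 bases before the start at chr2:245542865-245543114, Ehhadh on the plus strand at chr11:92746159-92746408 and Acadvl on the minus strand at chr10:55236706-55236955.
Acadm: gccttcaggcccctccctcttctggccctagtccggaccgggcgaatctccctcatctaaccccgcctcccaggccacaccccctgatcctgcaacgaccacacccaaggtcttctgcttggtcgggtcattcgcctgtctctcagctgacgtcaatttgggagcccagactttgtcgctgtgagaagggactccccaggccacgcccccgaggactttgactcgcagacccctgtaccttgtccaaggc
Ehhadh: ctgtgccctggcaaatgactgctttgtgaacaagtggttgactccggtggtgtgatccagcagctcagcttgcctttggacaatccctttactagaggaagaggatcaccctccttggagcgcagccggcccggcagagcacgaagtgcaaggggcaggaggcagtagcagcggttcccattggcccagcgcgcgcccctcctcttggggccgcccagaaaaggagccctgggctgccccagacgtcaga
Acadvl: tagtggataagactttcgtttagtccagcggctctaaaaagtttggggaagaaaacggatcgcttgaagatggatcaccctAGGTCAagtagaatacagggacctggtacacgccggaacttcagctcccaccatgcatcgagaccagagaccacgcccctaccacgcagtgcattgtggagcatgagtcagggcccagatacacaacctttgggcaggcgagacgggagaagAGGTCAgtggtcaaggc
Hadha and Hadhb start 301 bases apart and are read away from each other, so that their upstream windows share the 200 bases at chr6:31907551-31907750, printed here on the plus strand.
Hadha and Hadhb: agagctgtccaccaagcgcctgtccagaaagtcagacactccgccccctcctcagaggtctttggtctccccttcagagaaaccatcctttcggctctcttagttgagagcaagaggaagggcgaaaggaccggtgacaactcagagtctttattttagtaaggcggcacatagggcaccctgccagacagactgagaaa
The shared stretch holds 53.5% G and C, against 62.4% upstream of Acadm, 62.0% upstream of Ehhadh and 53.6% upstream of Acadvl. The PPAR response element in its strict form, AGGTCANAGGTCA on either strand, was in 0.0538% of 33469 promoter windows of 300 bases (250 before and 50 after the start) and in 0 of the 8 members. Its looser form, AGGNCANAGGNCA, which includes every strict match, was in 0.415% of the windows and in 0 of the 8. The hexamer AGGTCA alone was in 16.2% of the windows and in 2 of the 8 members, Hadhb and Acadvl. A match of letters is only a description, and sites outside these windows were not searched.

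The left kidneys carried transcripts of that segment: all 10 proximal tubule markers (such as Slc34a1, the sodium-phosphate transporter, and Lrp2, megalin) passed the filter on mean signal. Of 5 adipocyte markers, Adipoq, Cidec and Lipe passed it too, while Plin1 and Lep did not. Of the 12 member probe sets, 11 passed that filter, which kept probe sets with a mean of at least 7.52 on RAE230A or 6.85 on RAE230B, and Ppara did not. Pools A, B and J stood apart on the first principal component of both arrays. The beta-actin 5' minus 3' control signal reads how far cDNA reached from the 3' end. On RAE230A it was −1.27 to −1.14 in these pools against −2.10 to −1.66 in the other 9. On RAE230B it was −1.39 to −1.07 against −2.11 to −1.52, a narrower gap. The labels name no batch. In whole kidney, fewer cells of a type and less RNA per cell cannot be told apart. An adjusted p below is limma's, with the Benjamini-Hochberg correction over all probe sets of an array, and a call means an adjusted p under 0.05.

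No member was called in any strain comparison. Against S, 0 of 11 member probe sets were called in ET3x1, where 0.44% of all 21799 probe sets tested were called, and 0 of 11 in ET3x2, where 0.344% were called. Between ET3x2 and ET3x1 the count was 0 of 11, with 1.48% of all probe sets called. With so low a share called, a count of 0 among 11 is what the background share gives. An unadjusted p under 0.05 was reached by 2, 2 and 1 of the 11 in those comparisons, against 2583, 2369 and 2855 of all 21799. Without pools A, B and J the count was again 0 of 11 in each comparison. The sizes were small: the 8 member genes that passed the filter, by their main probe sets, differed from S by −0.23 to 0.17 in ET3x1 and by −0.31 to 0.36 in ET3x2, and by −0.21 to 0.27 between the substrains (log2).

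**Figure D1:**
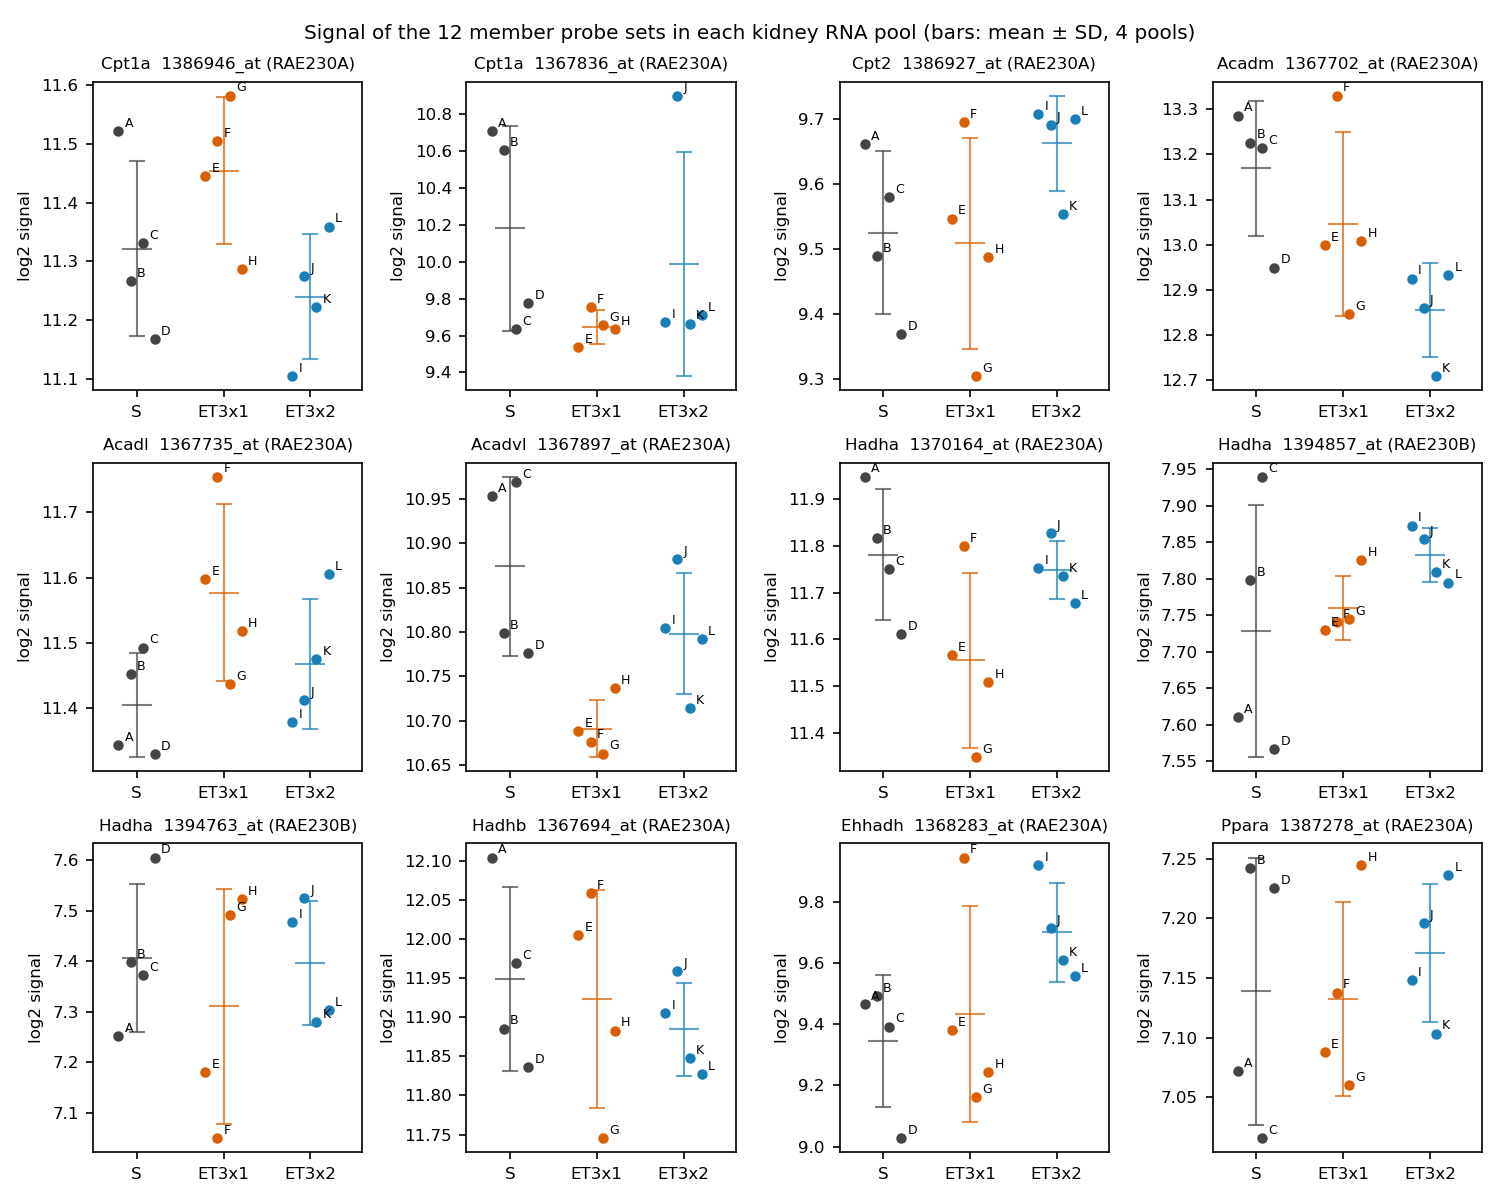
Deposited log2 signal (vertical axis, its own scale in each panel) of the 12 member probe sets in S, ET3x1 and ET3x2; each point is a pool, named by its letter, and the bars give the mean and SD of 4 pools. A reader should see overlapping strains in most panels, Acadm at or under 12.93 in all ET3x2 pools, Ehhadh at or above 9.56 in them, and the Cpt1a probe set 1367836_at near 10.6 to 10.9 in pools A, B and J only.

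The carnitine shuttle begins with Cpt1a, the carnitine palmitoyltransferase of the outer mitochondrial membrane and the controlled step of fatty acid entry. Its brighter probe set, 1386946_at, read 11.52, 11.27, 11.33 and 11.17 in the S pools A to D, 11.45, 11.50, 11.58 and 11.29 in the ET3x1 pools E to H, and 11.10, 11.27, 11.22 and 11.36 in the ET3x2 pools I to L. ET3x1 held the highest mean and ET3x2 the lowest, and the pools of all strains overlapped. The difference between the substrains was −0.21 (SE 0.093, 95% interval −0.41 to −0.016) for ET3x2 against ET3x1, with an adjusted p of 0.295. Against S it was 0.13 (SE 0.093) in ET3x1 and −0.082 (SE 0.093) in ET3x2, with adjusted p of 0.55 and 0.784.

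The other Cpt1a probe set, 1367836_at, followed the pools and not the strains. It read 10.71, 10.61, 9.63 and 9.78 in S, 9.54, 9.76, 9.66 and 9.64 in ET3x1, and 9.67, 10.90, 9.67 and 9.71 in ET3x2. Pools A, B and J lay at 10.61 to 10.90 and the other 9 pools at 9.54 to 9.78, a difference of 1.07 in mean, or 2.10-fold. These are the pools with the highest actin 5' minus 3' signal, whose part in the Cpt1a signal was not tested. Over the same pools 1386946_at differed by 0.021, so that the 2 probe sets of this gene disagreed. By the gap between the lowest of these 3 pools and the highest of the other 9, this probe set ranked 24 of 21799, and all 3 pools lay above the other 9 in 5.77% of probe sets. In the fit, ET3x1 against S gave −0.53 (SE 0.27, 95% interval −1.12 to 0.049, adjusted p = 0.409), and without pools A, B and J it gave −0.058. For ET3x2 against S it gave −0.19 (SE 0.27), which became −0.50 without pool J and −0.017 without pool A.

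**Figure D2:**
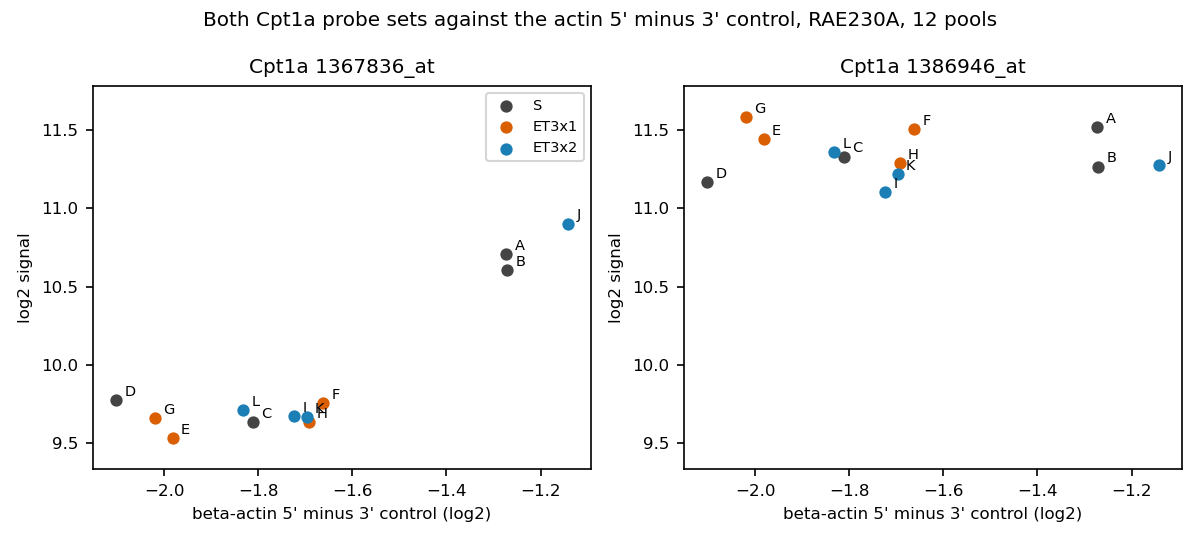
Log2 signal of the Cpt1a probe sets 1367836_at (left) and 1386946_at (right) against the beta-actin 5' minus 3' control of the same RAE230A array (horizontal axis, log2), 1 point per pool, coloured by strain. On the left, pools A, B and J stand at 10.61 to 10.90 and the other 9 at 9.54 to 9.78; on the right the same pools lie within the range of the rest.

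Cpt2, the inner-membrane transferase that turns the carnitine ester back into a coenzyme A ester, read 9.66, 9.49, 9.58 and 9.37 in S, 9.55, 9.70, 9.30 and 9.49 in ET3x1, and 9.71, 9.69, 9.55 and 9.70 in ET3x2. The ET3x2 pools were the closest together and 3 of them lay above every S pool, while pool K lay within the S range. The difference from S was 0.14 (SE 0.092, 95% interval −0.058 to 0.33, adjusted p = 0.597; 0.086 without pool D) in ET3x2 and −0.016 (SE 0.092, adjusted p = 0.954) in ET3x1.

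The acyl-CoA dehydrogenases carry out the first step of each cycle and divide the work by chain length. Acadm, the medium-chain enzyme (probe set 1367702_at), read 13.29, 13.23, 13.21 and 12.95 in S, 13.00, 13.33, 12.85 and 13.01 in ET3x1, and 12.92, 12.86, 12.71 and 12.93 in ET3x2. All ET3x2 pools lay below all S pools, by a narrow margin to pool D, and ET3x1 overlapped both. The groups did not overlap in 5.95% of all probe sets in this comparison, and among the 11 members in 2, Acadm and Ehhadh. Acadm differed by −0.31 (SE 0.10, 95% interval −0.53 to −0.094) in ET3x2 against S, 1.24-fold lower, with an adjusted p of 0.269, and it ranked 655 of 21799 by p. The adjusted p ran from 0.0359 to 0.668 over the alternatives, and the lowest, with a difference of −0.39, came from array weights and was the only call of a member in the alternatives run. The ET3x1 mean lay between, at −0.12 (SE 0.10) against S, and ET3x2 against ET3x1 gave −0.19 (SE 0.10), with adjusted p of 0.625 and 0.4. Both moved with single pools: without pool F they were −0.22 and −0.095, and the first was −0.20 without pool D and −0.056 without pool G.

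Acadvl, the very-long-chain enzyme of the inner membrane, read 10.95, 10.80, 10.97 and 10.78 in S, 10.69, 10.68, 10.66 and 10.74 in ET3x1, and 10.80, 10.88, 10.71 and 10.79 in ET3x2. All ET3x1 pools were below all S pools, and ET3x2 overlapped both. This was the only 1 of 11 members whose pools did not overlap in ET3x1 against S, where 6.4% of all probe sets had that property. The difference was −0.18 (SE 0.073, 95% interval −0.34 to −0.027, adjusted p = 0.309) in ET3x1 and −0.076 (SE 0.073, adjusted p = 0.737) in ET3x2. Thus Acadm was lowest in ET3x2 and Acadvl in ET3x1, though neither passed the test.

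Acadl, the long-chain enzyme, read 11.34, 11.45, 11.49 and 11.33 in S, 11.60, 11.76, 11.44 and 11.52 in ET3x1, and 11.38, 11.41, 11.48 and 11.61 in ET3x2. Its mean was highest in ET3x1, the opposite order to Acadvl, with overlapping pools throughout. ET3x1 against S gave 0.17 (SE 0.085, 95% interval −0.0083 to 0.35, adjusted p = 0.398), and 0.11 without pool F, and ET3x2 against S gave 0.063 (SE 0.085, adjusted p = 0.818).

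Hadha and Hadhb are the alpha and beta subunits of the mitochondrial trifunctional protein, which carries out the last 3 steps for long chains. Hadha on RAE230A (1370164_at) read 11.95, 11.82, 11.75 and 11.61 in S, 11.57, 11.80, 11.35 and 11.51 in ET3x1, and 11.75, 11.83, 11.74 and 11.68 in ET3x2. ET3x1 had the lowest mean, with only pool F inside the S range, and pools A, B and J were the highest of all 12, though by far less than in Cpt1a. The difference was −0.23 (SE 0.098, 95% interval −0.43 to −0.017, adjusted p = 0.342) for ET3x1 against S, and −0.13 without pools A, B and J. ET3x2 against S gave −0.033 (SE 0.098, adjusted p = 0.925).

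RAE230B carried 2 further Hadha probe sets nearer to the filter level. The first, 1394857_at, ranged over 7.57 to 7.94 in S, 7.73 to 7.83 in ET3x1 and 7.79 to 7.87 in ET3x2, and the second, 1394763_at, over 7.25 to 7.61, 7.05 to 7.52 and 7.28 to 7.52. Their differences for ET3x1 against S were 0.032 (SE 0.074) and −0.096 (SE 0.11), so that 2 of the 3 Hadha probe sets were lower and 1 was higher in ET3x1, none of them called.

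Hadhb read 12.10, 11.89, 11.97 and 11.84 in S, 12.005, 12.06, 11.75 and 11.88 in ET3x1, and 11.91, 11.96, 11.85 and 11.83 in ET3x2. Every strain covered the middle of the range, and the differences from S were −0.026 (SE 0.085) in ET3x1 and −0.064 (SE 0.085) in ET3x2, with adjusted p of 0.917 and 0.817. Over the 12 pools, Hadha (1370164_at) and Hadhb, whose genes share the stretch printed above, had Pearson's r = 0.678 (permutation p = 0.0154) and Spearman's rho = 0.629 (permutation p = 0.0317). Over the 36 pairs of members the adjusted p were 0.139 and 0.229, and r fell to 0.506 without the pair of pools farthest from the median of Hadha. With each strain's mean removed, r was 0.903, and 0.832 after quantile normalization, both as descriptions of pools that share their arrays. What part the shared stretch had in this was not tested. Pairs on different chromosomes had similar values, with r = 0.724 for Cpt2 and Hadha and 0.694 for Acadm and Hadhb (adjusted permutation p = 0.137 and 0.139). With strain means removed, r was 0.902 for Cpt2 and Hadhb, and 0.75 after quantile normalization. In that last setting the 0.832 of Hadha and Hadhb was the highest of the 36 pairs.

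Ehhadh encodes the peroxisomal L-bifunctional protein, which joins hydratase and dehydrogenase steps and serves dicarboxylic acids among other substrates. It read 9.46, 9.49, 9.39 and 9.03 in S, 9.38, 9.94, 9.16 and 9.24 in ET3x1, and 9.92, 9.71, 9.61 and 9.56 in ET3x2. All ET3x2 pools lay above all S pools, and the ET3x1 pools spread over both, with pool F the highest of all 12. ET3x2 exceeded S by 0.36 (SE 0.15, 95% interval 0.026 to 0.69), 1.28-fold, with an adjusted p of 0.403. ET3x1 against S gave 0.089 (SE 0.15, 95% interval −0.24 to 0.42, adjusted p = 0.833), and ET3x2 against ET3x1 gave 0.27 (SE 0.15, adjusted p = 0.431). Without pool F the last 2 became −0.082 (adjusted p = 0.772) and 0.44 (adjusted p = 0.07), and without pool D the difference of ET3x1 from S was −0.017. In the last comparison the pools did not overlap in 0 of 11 members and in 9.15% of all probe sets.

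The signal of Ehhadh followed the deposited median of all RAE230A probe sets, which was highest in pool F at 8.60 and lowest in pools D and G at 8.49 and 8.50. Over the 12 pools Pearson's r was 0.882 (permutation p = 0.00016) and Spearman's rho 0.888 (permutation p = 0.00027), adjusted over the 9 members to 0.00144 and 0.00243, and r was 0.761 without the pair of pools farthest from the median. Quantile-normalized Ehhadh against the same deposited medians still gave r = 0.833. Only 0.216% of the 11106 RAE230A probe sets tested had an r at or above that of Ehhadh, with a median of 0.264. After each array was centred on its median, ET3x2 exceeded S by 0.34 (adjusted p = 0.307). Centring moves a pool only by the narrow spread of the medians, so it could change this difference little. It therefore cannot show what part array brightness had in Ehhadh, which was not tested. Cpt2 also followed the array median, with r = 0.783 (adjusted permutation p = 0.0108) and rho = 0.706 (adjusted permutation p = 0.0385), and Hadha with r = 0.683 (adjusted permutation p = 0.0426) and rho = 0.776 (adjusted permutation p = 0.0191). The strongest pair among the 36 was Cpt2 with Ehhadh, at r = 0.842 and rho = 0.846 (permutation p = 0.00064 and 0.00078, adjusted 0.023 and 0.0281), and r was 0.734 without the pair of pools farthest from the median of Cpt2. Since both follow the array median, the part of array brightness in this pair was not tested, and after quantile normalization its r was 0.748.

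Ppara (1387278_at) had a mean of 7.15 over the 12 pools, under the filter level, so that it entered no count of tested members. It ranged over 7.02 to 7.24 in S, 7.06 to 7.24 in ET3x1 and 7.10 to 7.24 in ET3x2. The strains overlapped throughout, and in the fit without a filter the differences were −0.0063 (SE 0.068, 95% interval −0.15 to 0.14) for ET3x1 against S, 0.032 (SE 0.068, 95% interval −0.11 to 0.18) for ET3x2 against S and 0.039 (SE 0.068) between the substrains. A change in a transcript this dim may not be measurable with these arrays.

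**Figure D3:**
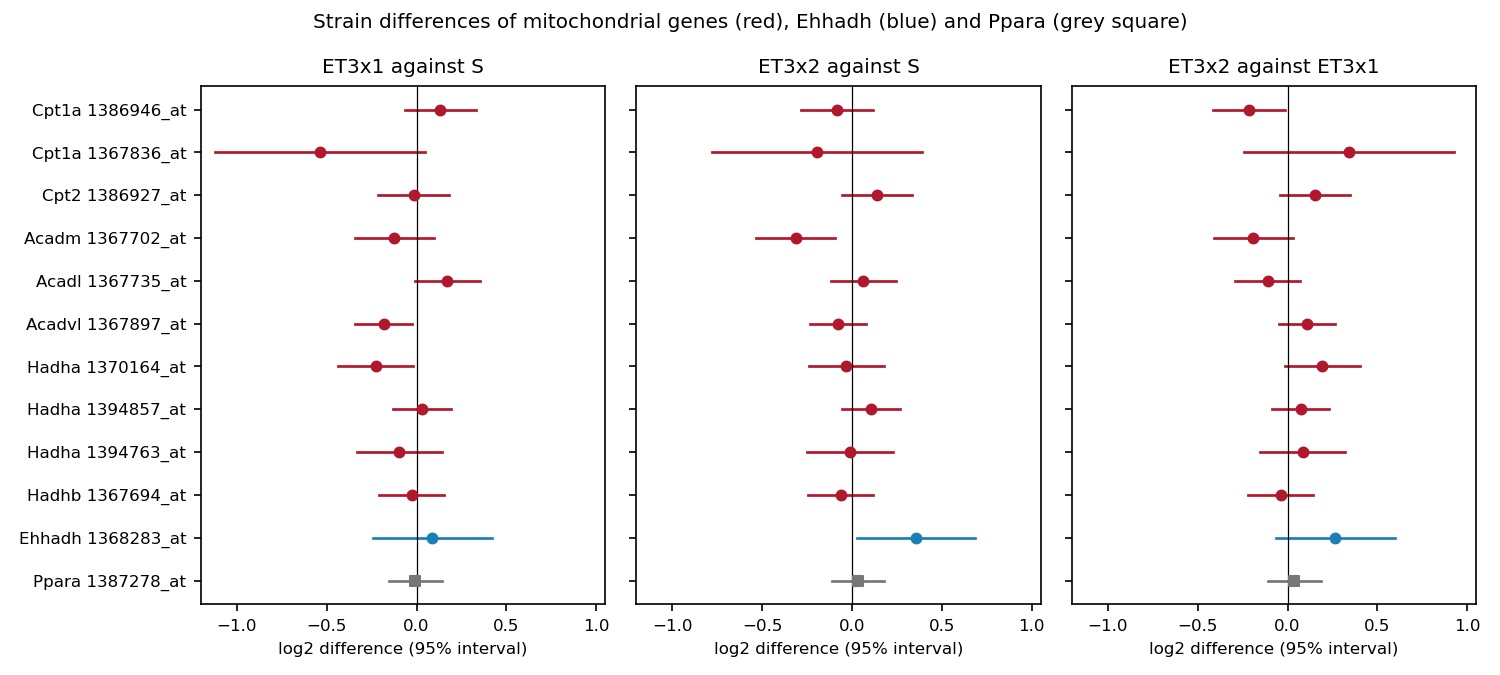
Log2 differences between strains (horizontal axis) with 95% intervals from limma for the 12 member probe sets, mitochondrial in red, Ehhadh in blue and Ppara, from the fit without a filter, as a grey square. For ET3x2 against S the interval of Acadm (−0.53 to −0.094) lies below 0 and that of Ehhadh (0.026 to 0.69) above it, and neither has an adjusted p under 0.05.

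Set against each other, most mitochondrial members and Ehhadh had differences of opposite sign in ET3x2 against S, none of them called. By main probe sets, 5 of the 7 mitochondrial genes were lower and 2 higher in ET3x2 than in S, with a median of −0.064, while Ehhadh was at 0.36. The median of all probe sets tested was 0.025 in that comparison, and 59% of them were higher in ET3x2. Apart from Acadm, the lower genes ran from −0.082 (Cpt1a) to −0.033 (Hadha), with SE of 0.073 to 0.098. In ET3x1 against S the mitochondrial median was −0.026, again with 5 of 7 lower, and Ehhadh was at 0.089. Over all probe sets tested the median was −0.0047, and 48.4% were higher in ET3x1. Between the substrains the mitochondrial median was −0.038 and Ehhadh was at 0.27, against 0.032 over all. Each of these is a difference of signals within the same arrays, and the comparisons with S share the S pools.

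The ratio of Ehhadh to a mitochondrial gene was then read in each pool, as the difference of their log2 signals with the 12-pool mean set to 0. Against Acadm it was −0.29, −0.20, −0.29 and −0.39 in S, −0.087, 0.14, −0.15 and −0.23 in ET3x1, and 0.53, 0.39, 0.43 and 0.16 in ET3x2. ET3x2 lay above all pools of both other strains, and S and ET3x1 overlapped. The ET3x2 mean exceeded the S mean by 0.67, and by 0.71 without pools A, B and J. Of the other tested RAE230A probe sets, 2.17% gave a difference from Ehhadh at least as large. Since Ehhadh enters every such difference, that share only ranks Acadm by its own difference from S. The separation of ET3x2 from S in this ratio follows from the pools of Acadm and Ehhadh, which already lay on opposite sides of S. It is therefore no further support.

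Against the other mitochondrial genes the ET3x2 mean exceeded that of S by 0.44 for Cpt1a, 0.22 for Cpt2, 0.29 for Acadl, 0.43 for Acadvl, 0.39 for Hadha and 0.42 for Hadhb. The pools of ET3x2 and S did not overlap for 4 of the 7 (Acadm, Acadvl, Hadha and Hadhb), and for 5 after quantile normalization. Set against every other tested RAE230A probe set, Ehhadh gave such a separation for 33.6%, and Ehhadh itself did not overlap between these strains. ET3x1 and S were separate for 1 of the 7 (Hadha) and for 3.57% of all, and ET3x2 and ET3x1 for 1 of the 7 (Acadm) and for 2.81% of all. Within strains Acadm and Ehhadh varied together across pools, with r = 0.883 after each strain's mean was removed, against r = 0.151 over all 12 pools without that step (rho = 0.021, permutation p = 0.635 and 0.955, adjusted 0.847 and 1). After quantile normalization the r within strains was 0.791. Within strains both also followed the RAE230A array median, with r = 0.924 for Acadm and 0.903 for Ehhadh, and the part of array brightness was not tested.

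**Figure D4:**
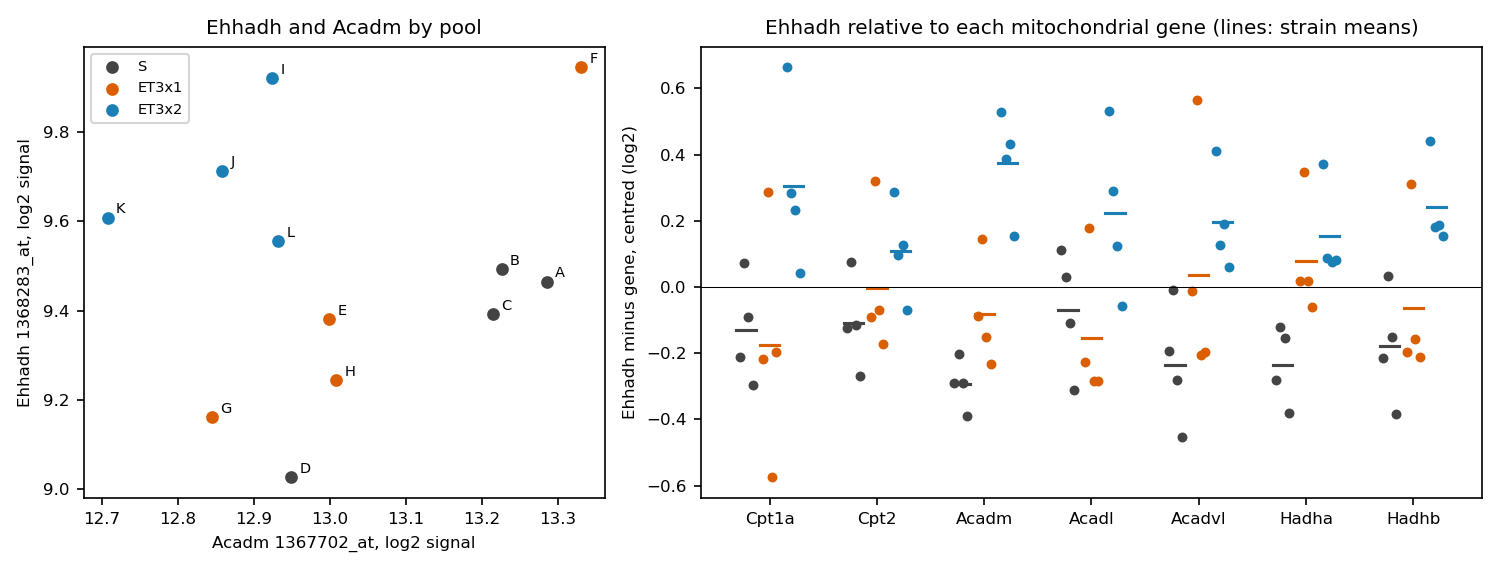
Left, log2 signal of Ehhadh against that of Acadm in the 12 pools; right, Ehhadh minus each of the 7 mitochondrial genes (log2, centred on the 12-pool mean), with a short line for each strain's mean. The ET3x2 pools lie above and to the left of the S pools on the left, and on the right they lie above every S pool for Acadm, Acadvl, Hadha and Hadhb.

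Other genes of the pathway were read by their main probe sets, 1 per gene, and the ends of each list given below hold for those probe sets. Over the 5 lists of further genes, 0 of 70 genes tested were called against S in either substrain, and 2 were called between ET3x2 and ET3x1, both lower in ET3x2. Of all probe sets tested, 1.48% were called between the substrains, 302 lower in ET3x2 and 21 higher, so that direction was the common one. An unadjusted p under 0.05 was reached by 12, 8 and 15 of the 70, or 17.1%, 11.4% and 21.4%, against 11.8%, 10.9% and 13.1% of all probe sets tested, and no test of that difference was made.

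Of the other mitochondrial oxidation genes 14 of 14 were tested and 0 were called. Their median difference from S was 0.058 in ET3x1 and 0.062 in ET3x2, and it was 0.028 between the substrains. In ET3x2 against S 9 of the 14 were higher and 5 lower, a split near that of all probe sets tested, of which 59% were higher. At the low end in ET3x1 against S lay Acat1, the thiolase of ketone body and isoleucine breakdown, at −0.43 (SE 0.15, adjusted p = 0.266), Acads, the short-chain dehydrogenase, at −0.32 (SE 0.12, adjusted p = 0.286) and Echs1, the short-chain hydratase, at −0.30 (SE 0.11, adjusted p = 0.287). A second Acat1 probe set, on RAE230B, 1383416_at, had the opposite sign, at 0.36 (SE 0.083, adjusted p = 0.0835). Between the substrains Echs1 was 0.37 (SE 0.11, adjusted p = 0.139) and Acat1 0.43 (SE 0.15, adjusted p = 0.201) for ET3x2 against ET3x1, so that Echs1 had its lowest mean in ET3x1, as Hadha and Acadvl did, while the second Acat1 probe set gave −0.17. Slc25a20, the carnitine-acylcarnitine carrier between Cpt1a and Cpt2, gave 0.15, 0.051 and −0.10 in the 3 comparisons, and Decr1, the dienoyl-CoA reductase for unsaturated chains, gave 0.055, −0.0072 and −0.062. At the ends of the list in ET3x2 against S lay Cpt1b, the muscle form of the transferase, at −0.053 and Hsd17b10, a short-chain dehydrogenase, at 0.16. Eci1 was highest in ET3x1 against S, at 0.18 (SE 0.12, adjusted p = 0.557), while its second probe set, 1370961_at, gave −0.062.

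Of the other peroxisomal genes 16 of 23 were tested, 3 lay under the filter (Acox2, Acox3 and Abcd2) and 4 were not analysed here, and 0 of 16 were called. Their medians were −0.0073, 0.022 and 0.0029, so the list did not share the size of Ehhadh in ET3x2. Hsd17b4, the D-bifunctional protein that runs the same steps as Ehhadh on other chains, gave −0.031, −0.0035 and 0.028, and catalase (Cat) gave −0.048, 0.081 and 0.13. Eci2, an enoyl-CoA isomerase, read 9.83, 9.47, 10.49 and 9.94 in S, 10.48, 11.08, 10.22 and 10.37 in ET3x1, and 10.89, 10.40, 10.63 and 10.58 in ET3x2. Only pool C of S reached the range of the substrains, and the differences from S were 0.60 (SE 0.20, adjusted p = 0.248) in ET3x1 and 0.69 (SE 0.20, adjusted p = 0.212) in ET3x2. Phyh, which starts the oxidation of phytanic acid, gave 0.44 (SE 0.12, adjusted p = 0.201) in ET3x2 against S on its RAE230A probe set and 0.019 on its RAE230B probe set, and in ET3x1 against S both gave 0.36 (adjusted p = 0.251 and 0.312), with pools that did not overlap on the RAE230B probe set only. That RAE230B probe set was also lower in pools A, B and J than in all other pools. The mean of Eci2 in pools A, B and J differed from that of the other pools by −0.62. What part these pools had in the differences of Phyh and Eci2 from S was not tested. Abcd3, a peroxisomal fatty acid transporter, had its highest mean in ET3x1, and ET3x2 against ET3x1 gave −0.65 (SE 0.16, adjusted p = 0.0794) with pools that did not overlap. It was also lowest of the list in ET3x2 against S, at −0.22 (SE 0.16, adjusted p = 0.638), followed by Hacl1 and Pex11a, both at −0.20. Crat was lowest in ET3x1 against S, at −0.24 (SE 0.10, adjusted p = 0.323).

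Of the genes of fatty acid uptake and activation 15 of 18 were tested, 3 lay under the filter (Fabp1, Acsl6 and Acacb) and 0 were called, with medians of 0.061, 0.021 and 0.011. Acsl1, the long-chain acyl-CoA synthetase, gave 0.37 (SE 0.12, adjusted p = 0.234) for ET3x1 against S and −0.37 (SE 0.12, adjusted p = 0.162) for ET3x2 against ET3x1 on 1388153_at, and 0.046 and 0.051 on 1370939_at, so its probe sets disagreed. Cd36, the fatty acid translocase, had the lowest value in both comparisons with S, at −0.35 (SE 0.18) and −0.22 (SE 0.18), and Fabp3, a fatty acid binding protein, the highest in ET3x2 against S, at 0.28 (SE 0.088, adjusted p = 0.263). Cd36 was also higher in pools A, B and J than in all other pools, and what part that had in its difference was not tested.

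Of 17 further PPAR alpha target genes 14 were tested and 0 were called, while 3 were not analysed here. The medians were 0.032, 0.072 and 0.069. Cyp4a1 is a fatty acid omega-hydroxylase whose products feed the peroxisomal route. It gave −0.10 (SE 0.10), 0.17 (SE 0.10, adjusted p = 0.544) and 0.28 (SE 0.10, adjusted p = 0.228), the last for ET3x2 against ET3x1. The related Cyp4a8 was lowest of the list in ET3x2 against S, at −0.12 (SE 0.083, adjusted p = 0.606). Cyp4a3 was lowest in ET3x1 against S, at −0.23 (SE 0.11, adjusted p = 0.397), and its mean was 12.23 in ET3x2 against 12.33 in S. These Cyp4a genes thus did not share a sign in ET3x2 against S. Cyp4a3 was also higher in pools A, B and J than in all other pools, whose part was not tested. Pdk4, the kinase that switches off pyruvate oxidation, gave 0.17, −0.0088 and −0.18 (SE 0.13 in each). Ucp2, a mitochondrial carrier, was highest of the list by main probe sets in ET3x2 against S, at 0.25 (SE 0.086, adjusted p = 0.299), and Cidea, a lipid droplet protein, in ET3x2 against ET3x1, at 0.32 (SE 0.089, adjusted p = 0.113). A second probe set of Acot2, an acyl-CoA thioesterase, is named after its values were seen: 1384115_at gave 0.98 (SE 0.21, adjusted p = 0.0538) in ET3x1 against S, with pools that did not overlap, and 0.52 (SE 0.21, adjusted p = 0.397) in ET3x2 against S. The main Acot2 probe set, 1391433_at, gave 0.18 and 0.078 in those comparisons, so these probe sets disagreed in size. The signal of 1384115_at was also lower in pools A, B and J than in all other pools, whose part in its difference was not tested.

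The called genes were among the partners and regulators of PPAR alpha, where 11 of 14 genes were tested, 2 lay under the filter (Rxrb and Pparg) and Sirt1 was not analysed here. Ppargc1b, a coactivator of genes of oxidative metabolism, read 8.85, 8.86, 8.89 and 8.63 in S, 9.29, 9.02, 9.25 and 8.99 in ET3x1, and 8.67, 8.67, 8.77 and 8.67 in ET3x2. ET3x1 was above all pools of both other strains, and ET3x2 against ET3x1 gave −0.45 (SE 0.081, 95% interval −0.62 to −0.27, adjusted p = 0.0103), with an adjusted p of 0.00147 to 0.0459 over the alternatives. Its difference for ET3x1 against S was 0.33 (SE 0.081, adjusted p = 0.0991).

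Med1, the Mediator subunit that binds nuclear receptors (probe set 1376906_at), read 9.44, 9.26, 9.46 and 9.06 in S, 9.68, 9.77, 9.83 and 9.80 in ET3x1, and 9.32, 9.03, 9.15 and 9.46 in ET3x2. Again ET3x1 stood above all pools of the other strains, and ET3x2 against ET3x1 gave −0.53 (SE 0.10, 95% interval −0.76 to −0.31, adjusted p = 0.0278). That call was lost without pools A, B and J (−0.46, adjusted p = 0.0629) and without each of pools E, G, H, I, J and K alone, where the adjusted p was 0.0567 to 0.123. The other Med1 probe sets gave −0.24 (1390506_at) and −0.030 (1384962_at) and were not called. Prkaa2, a catalytic subunit of the AMP-activated kinase, had the lowest value of the list in ET3x2 against S, at −0.87 (SE 0.18, adjusted p = 0.089), and Ppard, the related receptor, the highest, at 0.39 (SE 0.091, adjusted p = 0.133), both with pools that did not overlap. The medians of this list were 0.13, −0.032 and −0.078.

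**Figure D5:**
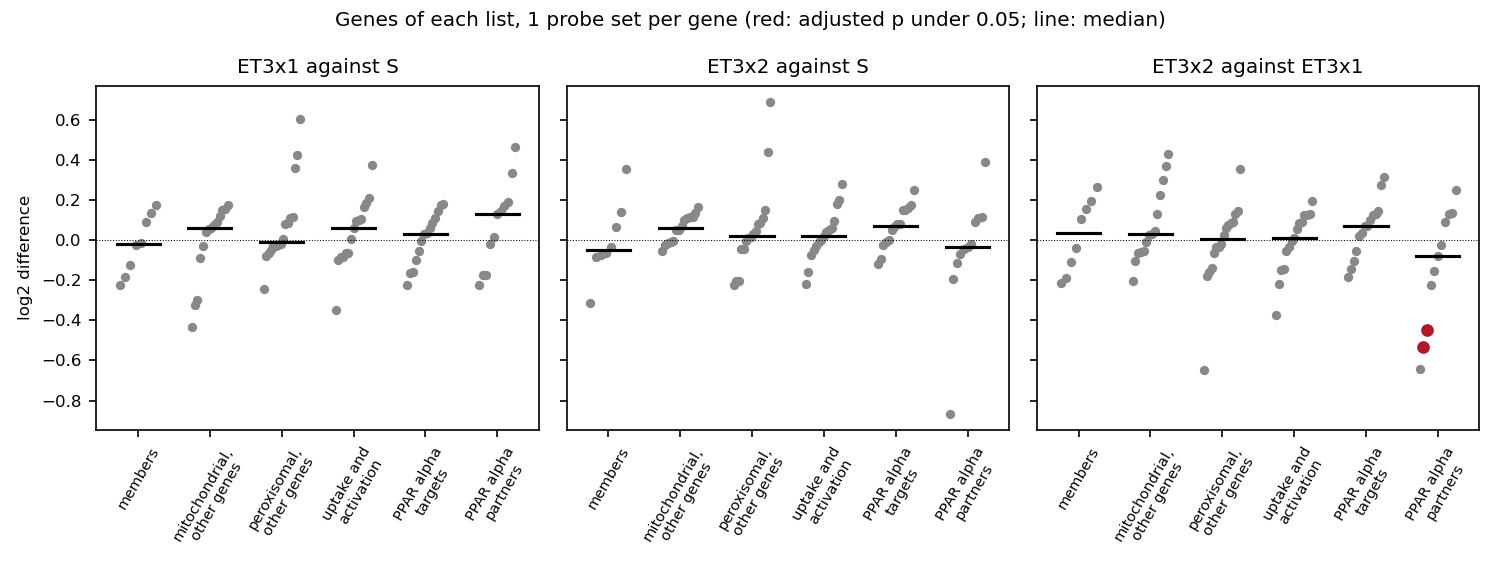
Log2 differences (vertical axis) of the main probe set of each tested gene in the members and the 5 further lists, in 3 strain comparisons; lines are medians and red points have an adjusted p under 0.05. The 2 red points are Ppargc1b at −0.45 and Med1 at −0.53 among the PPAR alpha partners, in ET3x2 against ET3x1.

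Markers of kidney cell types were read beside these values. Of 40 marker genes in 9 lists, 1 was called in any comparison, Atp6v1b1 of the intercalated cell, which was 0.33 higher in ET3x1 than in S (adjusted p = 0.0483), a call lost in 14 of 20 alternatives, with an adjusted p of 0.0149 to 0.257, the highest without pools A, B and J. The mean of the 10 proximal tubule markers, centred on the 12 pools, ranged over −0.13 to 0.030 in S, −0.11 to 0.10 in ET3x1 and −0.018 to 0.067 in ET3x2, and the median difference of these markers was 0.012, 0.066 and 0.058 in the 3 comparisons. Pool F was highest and pool D lowest in that mean, as pool F was highest and pool D lowest in Ehhadh, and the part of tubule content in the Ehhadh values was not tested.

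The profile of Ehhadh over the 12 pools was compared by Pearson's r with 15096 other tested probe sets that carry 1 symbol. The genes most like it were Bcl2l1 (r = 0.949), Zfp706 (0.944), Cyp2c23 (0.937), Klhl25 (0.937) and Hadh (0.936). Hadh, the mitochondrial hydroxyacyl-CoA dehydrogenase of shorter chains, had differences of −0.030, 0.098 and 0.13 (SE 0.097 in each). For the mean of the 7 mitochondrial genes they were Enpep (0.958), Klhl2 (0.956), Kat2b (0.948), Cct2 (0.947) and Fam98a (0.946). For Ppara they were Igsf8 (0.899), Syp (0.881), Cartpt (0.877), Mad1l1 (0.824) and Flt3lg (0.801). These are the highest of many values over 12 pools that share arrays and brightness, and they are given as a description only. Among the 7 mitochondrial genes themselves, r was above 0 for 16 of 21 pairs with a median of 0.351, and with strain means removed the median was 0.462 as deposited and 0.007 after quantile normalization.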

How the data were processed

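Total RNA of left kidneys was pooled and hybridised to Affymetrix RAE230A and RAE230B arrays (15866 and 15276 probe sets besides 57 controls on each). The deposited tables hold 1 value per probe set and pool, taken here as log2 signal from its range; the summarisation, background correction and normalisation the authors used are not given in the sources used here, so a log2 difference may understate the change of dim transcripts. Arrays carry no depth, and their number limits the precision. Symbols came from the platform annotation and a GRCr8 RefSeq table, and promoter sequences from RefSeq (GRCr8).

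Controls and probe sets with a mean under the 30th percentile of their array were left out, which left 21799. Linear models were fitted to all 12 pools of an array with limma 3.58.1 (lmFit, eBayes with trend) in R 4.3.3, two-sided, with Benjamini-Hochberg adjustment within array and contrast, and a threshold of 0.05. The fit was tested on simulated data. Errors are SE of the fit, and a p-value reads only the variation among pools, each of other rats. Correlations used 100000 permutations. Plots used matplotlib 3.10.9 (Python 3.11.15).

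The members and the gene lists were chosen with earlier results of these data known. A gene's main probe set was that of highest mean, from RAE230A where possible. Named were all members, every called list gene, a few fixed genes and some, not all, of the list genes at the ends of a comparison. The alternatives were other scaling, filters, samples, weights, an actin covariate, gene means and leaving out pools. Alternatives for Ehhadh minus each mitochondrial gene and for correlations were chosen after seeing the data.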

Additional observations from a re-analysis of the deposited data

Results flagged for a closer look

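Of 36 sets of 4 pools (12 member probe sets in 3 strains), 3 held a pool far from the other 3 of its strain by Dixon's criterion, which chance meets in about 1 in 20. For Cpt1a (1367836_at), ET3x2 pool J read 10.90 and the other ET3x2 pools 9.67 to 9.71. For Cpt2, ET3x2 pool K read 9.55 and the others 9.69 to 9.71. For Hadha (1394857_at), ET3x1 pool H read 7.83 and the others 7.73 to 7.75.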

How the results depend on the processing

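The count of 0 called members held in every alternative, except that array weights called 1 (Acadm) in ET3x2 against S. Counts over all probe sets moved more. For ET3x1 against S the main 96 became 51 with only the 2 groups of the contrast, 164 with array weights, 215 with the actin covariate and 45 on gene means, and 41 to 118 when single pools were left out. For ET3x2 against S the main 75 became 42, 419, 432 and 18 under the same settings, 17 without pools A, B and J, and 19 (without pool A) to 167 (without pool D) with single pools left out. Between the substrains the main 323 became 1658 with array weights, 502 with the actin covariate and 150 on gene means, and 133 (without pool K) to 488 (without pool F) with single pools left out. The cause was not tested.

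Member values near 0 changed sign. With array weights, ET3x1 against S gave −0.058 for Ehhadh and −0.019 for Hadha 1394857_at, and ET3x2 against S gave 0.0051 for Hadha 1394763_at. With the actin covariate, ET3x1 against S gave 0.016 for Hadhb and 0.026 for Cpt2, and ET3x2 against S gave 0.011 for Hadha 1394763_at. Without pools A, B and J, ET3x1 against S gave 0.020 for Hadhb and 0.034 for Cpt2, and ET3x2 against S gave 0.041 for Hadha 1370164_at. With single pools left out, ET3x1 against S ran from −0.079 to 0.052 for Cpt2, −0.082 to 0.18 for Ehhadh (the lowest without pool F), −0.071 to 0.033 for Hadhb and −0.022 to 0.10 for Hadha 1394857_at. ET3x2 against S ran from −0.090 to 0.023 for Hadha 1370164_at and −0.063 to 0.055 for Hadha 1394763_at. Between the substrains the ranges were −0.0018 to 0.16 for Hadha 1394763_at and −0.097 to 0.0072 for Hadhb. Hadha 1394763_at was not tested with the filter at the 50th percentile. Ehhadh in ET3x2 against S stayed between 0.25 and 0.49, and Acadm between −0.39 and −0.23. The median over member genes stayed within −0.080 to 0.043, −0.096 to 0.010 and −0.0057 to 0.085. No paired analysis was possible because the labels give pools of different strains different letters. Precision is limited by 4 pools per strain.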
